A study of Homo sapiens with 6 samples.

Results

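The transcripts of the NF-kB subunits and of the genes that restrain them were followed in K1 cells. The set held 10 genes, found by their gene symbol among the 20522 rows measured in each library, 5 of them subunits (RELA, NFKB1, NFKB2, RELB and REL) and 5 inhibitors or regulators (NFKBIA, NFKBIB, NFKBIE, TNFAIP3 and BCL3). Each symbol had 1 row, and all 10 genes passed the filter on low counts that left 13109 genes for testing.

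K1 is an established line from a papillary thyroid carcinoma. It was transfected either with a negative control siRNA (the NC group, 3 libraries) or with a siRNA labelled si-NEAT1_2 (the si-NEAT1_2 group, 3 libraries), so that both groups were the same cell line, both had been transfected, and each stood for a single siRNA. The mRNA of the cells was sequenced, and the comparison asks which mRNAs differ once the NEAT1_2 transcript is targeted. NEAT1 itself was not analysed here, and nothing in the labels says whether libraries of a group came from separate cultures, so the p-values measure the spread between these libraries, which may be technical.

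NF-kB is a family of dimeric transcription factors. In a resting cell the dimers are held in the cytoplasm by the inhibitory IkB proteins, and a signal from receptors such as those for TNF or interleukin-1 makes a kinase complex mark IkB for degradation, after which the dimer enters the nucleus. Several genes of its own brakes and subunits are among its targets, so that the pathway feeds back on itself. This control acts largely on proteins, and an mRNA level does not report where a protein is in the cell.

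Because several members are known targets of the factor, the sequences around matches to a kappaB motif are shown for the members that had one. The windows of the RefSeq table (build GRCh38.p14) run from 250 bases before to 50 bases after a transcription start. The motif GGGNNTTTCC was searched on both strands, where N is any base. It was found in 6 of the 8 members with an entry in the table, and in 7 of their 13 windows. Of all 35116 windows 1.91% held it, and of all 27305 genes 2.33% held it in any window. Capitals mark the match, the strand of the gene is printed 5′ to 3′, and the match lies on the opposite strand in NFKBIA, REL and TNFAIP3.

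NFKB1: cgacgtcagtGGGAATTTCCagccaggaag
NFKB2: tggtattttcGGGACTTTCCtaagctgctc
REL: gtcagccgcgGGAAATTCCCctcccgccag
NFKBIA: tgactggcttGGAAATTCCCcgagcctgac
NFKBIB: gggcgtggtgGGGAATTTCCcgcagggcgg
TNFAIP3: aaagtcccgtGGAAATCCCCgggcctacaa

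The NFKB1 sequence is at chr4:102501300-102501329 on the plus strand, and the NFKB2 sequence at chr10:102395674-102395703 on the plus strand. That of REL is at chr2:60881518-60881547 on the plus strand, and that of NFKBIA at chr14:35404811-35404840 on the minus strand. NFKBIB has its match at chr19:38899931-38899960 and TNFAIP3 at chr6:137867194-137867223, both on the plus strand. NFKB2 and TNFAIP3 each had another match, 78 and 67 bases before a start. BCL3 and RELA had no match to these letters, and RELB and NFKBIE had no window in the RefSeq table. The looser motif GGGNNNNNCC, which contains the first one, was found in all 8 members and in 61.67% of all genes. By window, it was found in all 13 windows of the members and in 58.67% of all windows. A match is a description of the letters and not a measured binding site.

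The label of the line was set against marker genes. Of the 9 thyroid follicular markers, PAX8 had a mean FPKM of 135, FOXE1 of 7.51 and TG of 2.75, while TSHR stayed at or under 0.08 in every library and NKX2-1 at or under 0.05. The keratins KRT8 and KRT7 were abundant, with mean FPKM of 1307 and 775, and the epithelial cadherin CDH1 was at or under 0.38. FPKM is the number of fragments scaled for transcript length and for the fragments mapped in a library. It is the scale used here to order the levels of different genes. Shares and ratios between genes are also given in TMM CPM, explained below, which is not scaled for transcript length.

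Total expected counts per library ranged from 22798631 to 27066025. The libraries differed in how strongly they represented genes of low or high GC content, and NC replicate 2 and si-NEAT1_2 replicate 2 were the opposite ends of this trend. Their 1259 genes of lowest GC content (at or under 38.67%) stood at a median of 0.47 above and 0.42 below their mean over the 6 libraries on the log2 scale. Fold changes, ratios and shares are therefore given both as measured and after a correction that removes, library by library, the trend of the counts with GC content and transcript length.

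All members were expressed. NFKBIA, which encodes IkB-alpha, the inhibitor best known for rapid resynthesis after a signal, was the most abundant, with a mean FPKM of 60.1 over the 6 libraries (range 49.5 to 71.5). RELA, encoding the transactivating subunit p65, followed at 39.9 (35.1 to 48.5) and NFKB2, encoding p100 and its product p52, at 34.8 (29.9 to 42.7). NFKBIA stood above RELA in 6 of 6 libraries with ranges that did not overlap, whereas RELA and NFKB2 overlapped. NFKB2 in turn was above NFKBIB in 6 of 6 libraries without overlap.

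Next came NFKBIB at a mean FPKM of 20.6 (16.6 to 25.0), NFKBIE at 16.8 (11.1 to 23.0) and NFKB1 at 16.7 (13.9 to 17.8). NFKBIE and NFKB1 differed by a ratio of 1.007 and could not be ordered, with NFKBIE the higher in 3 of 6 libraries. RELB at 12.8 and BCL3 at 10.6 followed, each overlapping the gene before it, then TNFAIP3 at 6.59 (5.01 to 8.39). REL, encoding c-Rel, a subunit best known from lymphoid cells, was lowest at 1.88 (0.80 to 3.46), and TNFAIP3 was above it in 6 of 6 libraries by a mean ratio of 3.51.

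None of the 10 members differed between the groups by the thresholds used, a fold change of at least 2 with a Benjamini-Hochberg adjusted p under 0.05 from the quasi-likelihood test of edgeR. Of the 13109 genes tested 0 passed as well, 0.00% of them. At an unadjusted p under 0.05, 4 members were higher in the si-NEAT1_2 group (NFKB2, RELB, NFKBIE and BCL3) and 1 was lower (REL). Over all genes tested 11.2% were higher and 12.9% lower at that level. The log2 fold change was above 0 in 9 of 10 members and in 50.9% of all genes, with medians of 0.31 and 0.01. In bulk libraries, fewer cells with a transcript and less of it per cell cannot be told apart. Without TMM scaling the median over all genes moved to -0.05 and that of the members to 0.24.

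**Figure D1:**
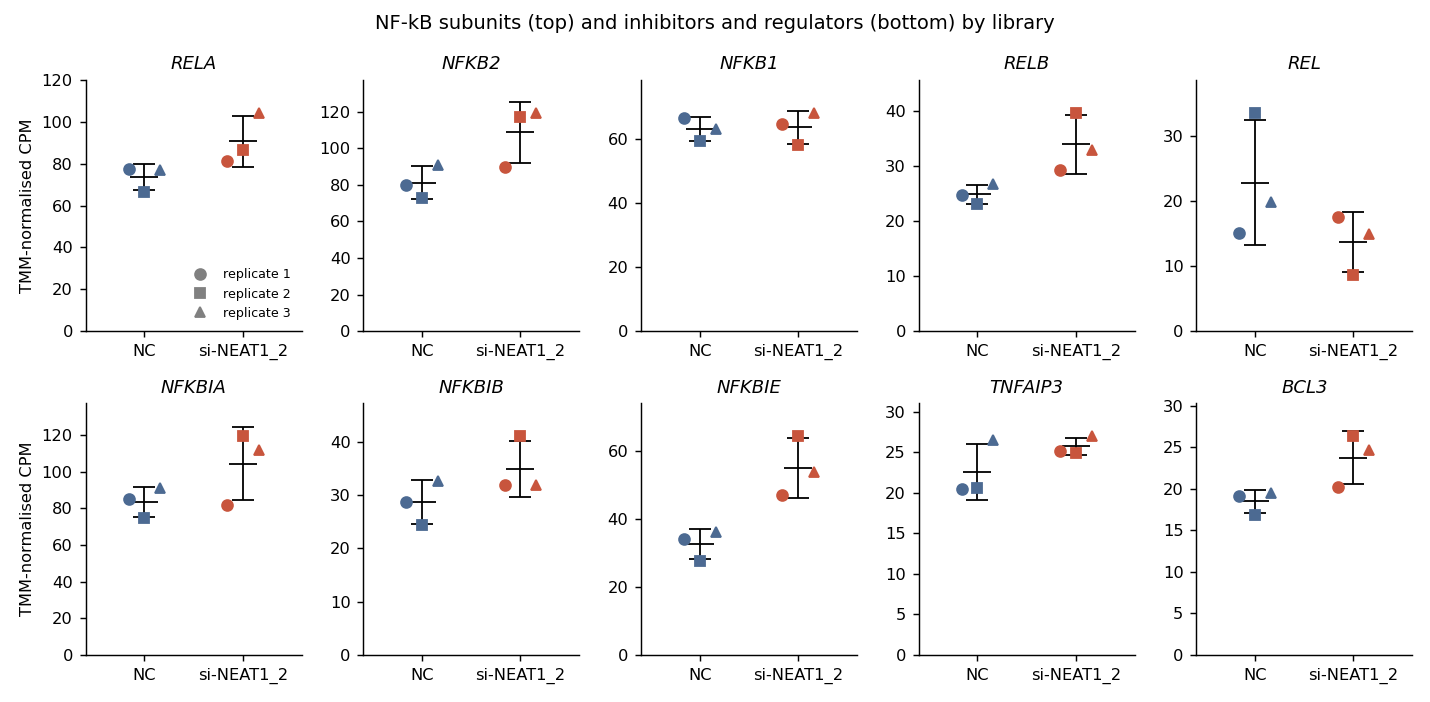
TMM-normalised CPM (linear axis from 0) of each member in the 3 NC libraries (blue) and the 3 si-NEAT1_2 libraries (red). Symbols give the replicate number, which was not used to pair libraries, and black bars the mean and SD of each group. NFKBIE, RELB, RELA and BCL3 show no overlap between the groups, and the spread of REL in NC comes from replicate 2 at 33.7.

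Among the subunits, RELA lies on the minus strand of chromosome 11 (65653596 to 65663094; positions of genes are from GENCODE release 29 on GRCh38). Its TMM CPM, the count relative to the library's total after TMM scaling, was 77.5, 66.6 and 77.2 in the NC libraries and 81.2, 86.5 and 104 in the si-NEAT1_2 libraries. The si-NEAT1_2 libraries were all above the NC libraries, with means of 73.8 ± 6.20 and 90.7 ± 12.2 (SD, n = 3 each; two-sided exact permutation p = 0.10, the smallest that 3 against 3 libraries can give). The log2 fold change was 0.30 (SE 0.14, adjusted p = 0.212).

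This difference was not seen on the FPKM scale, where RELA had 42.7, 35.1 and 40.7 in NC and 37.1, 35.3 and 48.5 in si-NEAT1_2. The groups overlapped there, with means of 39.5 ± 3.96 and 40.3 ± 7.15. The transcript length that count, FPKM and library total imply for RELA was 1838 to 1964 bases in NC and 2143 to 2260 bases in si-NEAT1_2, without overlap. Its spread over the 6 libraries was 1.23 times, which 20.7% of 10073 genes exceeded. NFKBIA did not overlap in this length either, at 1554 to 1555 bases in NC and 1556 to 1557 in si-NEAT1_2. RSEM, which the methods name, estimates such a length per library from the isoforms it assigns reads to. Which tool made the deposited values is not settled by the sources used here. Whether the isoforms of RELA differed was not tested.

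NFKB2, on the plus strand of chromosome 10 (102394110 to 102402529), had a TMM CPM of 79.9, 72.6 and 90.8 in NC and of 89.5, 117 and 119 in si-NEAT1_2. The groups overlapped by 1 library, since si-NEAT1_2 replicate 1 lay just below NC replicate 3. On the FPKM scale the groups of NFKB2 did not overlap (29.9 to 34.4 in NC and 35.1 to 42.7 in si-NEAT1_2). Its log2 fold change was 0.42 (SE 0.15, adjusted p = 0.171).

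RELB, which forms the dimer with p52 in the non-canonical pathway, lies on the plus strand of chromosome 19 (45001430 to 45038198). Its TMM CPM was 24.8, 23.2 and 26.7 in NC and 29.3, 39.8 and 32.9 in si-NEAT1_2. The groups did not overlap, with means of 24.9 ± 1.75 and 34.0 ± 5.32 (two-sided exact permutation p = 0.10). RELB had a log2 fold change of 0.45 (SE 0.15, adjusted p = 0.170).

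NFKB1, encoding p105 and its product p50, the partner of p65, lies on the plus strand of chromosome 4 (102501329 to 102617302). It had a TMM CPM of 66.6, 59.3 and 63.0 in NC and of 64.4, 58.0 and 68.1 in si-NEAT1_2. The groups overlapped almost fully, and the log2 fold change of 0.01 was smaller than its SE of 0.13 (adjusted p = 0.956).

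REL, on the plus strand of chromosome 2 (60881521 to 60931610), was the 1 member with a negative value. Its TMM CPM was 15.1, 33.7 and 19.9 in NC and 17.6, 8.69 and 15.0 in si-NEAT1_2. The groups overlapped, and the extremes were NC replicate 2 and si-NEAT1_2 replicate 2, the same libraries that were the extremes of the GC trend. The log2 fold change was -0.73 (SE 0.31, adjusted p = 0.189) and -0.35 without NC replicate 2 or -0.50 without si-NEAT1_2 replicate 2. REL was also the member of lowest GC content (38.7%) and of the longest transcript (11255 bases), and its deposited counts were not whole (207 to 794), the reason for which was not tested.

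Among the inhibitors, NFKBIE encodes IkB-epsilon and lies on the minus strand of chromosome 6 (44258166 to 44265788). Its difference was close in size to that of REL, which was the larger without TMM (-0.78 against 0.69) and with the library code as a covariate (-0.90 against 0.86). REL was also the larger without NC replicate 1 (-0.98 against 0.77) or NC replicate 3 (-0.84 against 0.82). The same held without si-NEAT1_2 replicate 1 (-0.96 against 0.85) or si-NEAT1_2 replicate 3 (-0.80 against 0.77), and in the deposited group table (-1.03 against 0.74). The TMM CPM of NFKBIE was 34.2, 27.7 and 36.1 in NC and 46.9, 64.4 and 54.0 in si-NEAT1_2. Every si-NEAT1_2 library was above every NC library, with means of 32.6 ± 4.38 and 55.1 ± 8.78 (two-sided exact permutation p = 0.10). The log2 fold change was 0.75 (SE 0.16, a 1.69-fold difference), and of all genes tested 0.236% had a smaller p.

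The adjusted p of NFKBIE was 0.170 with edgeR and 0.008 with DESeq2, and the fold change stayed under 2 with both. DESeq2 called 0.458% of all genes past both thresholds and none of the members. Leaving out each library in turn gave log2 fold changes of 0.62 to 0.85 for NFKBIE, and its adjusted p with edgeR ran from 0.049 without si-NEAT1_2 replicate 1, where 32 genes were called higher and 184 lower in all, to 0.558 without NC replicate 2. On the FPKM scale NFKBIE had 13.4, 11.1 and 14.2 in NC and 18.5, 23.0 and 20.8 in si-NEAT1_2, again without overlap.

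NFKBIA, on the minus strand of chromosome 14 (35401511 to 35404749), had a TMM CPM of 85.2, 74.5 and 90.9 in NC and of 82.0, 119 and 112 in si-NEAT1_2. The groups overlapped because si-NEAT1_2 replicate 1 fell among the NC libraries. Its log2 fold change was 0.32 (SE 0.16, adjusted p = 0.228).

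NFKBIB, encoding IkB-beta, lies on the plus strand of chromosome 19 (38899700 to 38908893). Its TMM CPM was 28.7, 24.5 and 32.8 in NC and 31.9, 41.1 and 31.9 in si-NEAT1_2. The groups overlapped here too, with 1 si-NEAT1_2 library, replicate 2, above all others. On the FPKM scale they did not overlap (16.6 to 20.8 in NC and 21.0 to 25.0 in si-NEAT1_2). NFKBIB had a log2 fold change of 0.29 (SE 0.16, adjusted p = 0.283).

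TNFAIP3 encodes A20, a ubiquitin-editing enzyme that switches off signalling upstream of the IkB kinases, on the plus strand of chromosome 6 (137867188 to 137883312). It had a TMM CPM of 20.5, 20.7 and 26.5 in NC and of 25.2, 25.0 and 27.0 in si-NEAT1_2. The groups overlapped, and the log2 fold change was 0.19 (SE 0.15, adjusted p = 0.438). The length implied for TNFAIP3 ranged from 2839 to 4598 bases over the 6 libraries, a spread of 1.62 times that 3.80% of 10073 genes exceeded, so its FPKM and its count did not move together between libraries.

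BCL3, a nuclear member of the IkB family that binds p50 and p52 dimers, lies on the plus strand of chromosome 19 (44747705 to 44760044). Its TMM CPM was 19.1, 16.8 and 19.5 in NC and 20.2, 26.3 and 24.7 in si-NEAT1_2. The groups did not overlap, with means of 18.5 ± 1.43 and 23.7 ± 3.16 (two-sided exact permutation p = 0.10). For BCL3 the log2 fold change was 0.36 (SE 0.16, adjusted p = 0.193).

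In all, TMM CPM was higher in every si-NEAT1_2 library than in every NC library for 4 of 10 members, and for 15.4% of all genes tested. Taking each library's median over the members, on the log2 scale against the mean of NC, gave 0.02, -0.14 and 0.12 for the NC libraries and 0.15, 0.52 and 0.41 for the si-NEAT1_2 libraries. The members therefore stood highest in si-NEAT1_2 replicates 2 and 3 and close to the NC libraries in replicate 1.

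The members are not spread evenly in base composition. The GC content of the longest protein-coding transcript was above the median of the genes tested (48.4%) in 9 of 10 members, all but REL, and 4 members (BCL3 at 67.4%, RELB at 65.4%, NFKB2 at 62.4% and NFKBIB at 62.3%) were among the 1258 genes of highest GC content. Over all genes tested, split into 10 bins of GC content, the median log2 fold change ran from -0.44 in the lowest bin to 0.32 in the highest. The correction also removes a trend with transcript length, which these bins do not show. The transcript of NFKBIA (1558 bases) was longer than that of 11.1% of the genes tested, and that of REL longer than 97.1%. What part of a member's shift came from length was not tested.

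**Figure D2:**
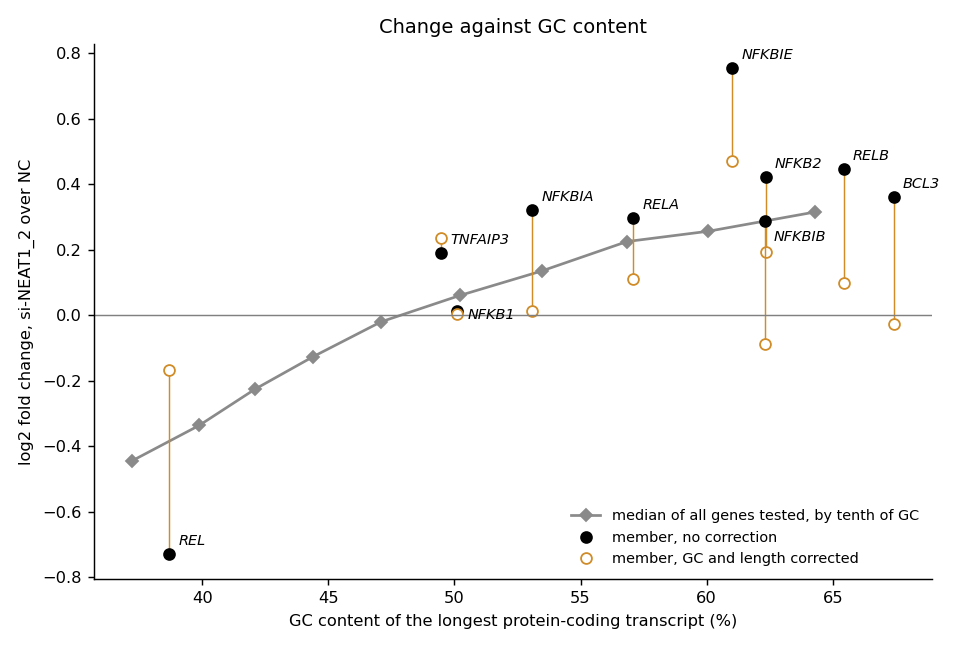
Log2 fold change between si-NEAT1_2 and NC (vertical axis) against GC content in percent (horizontal axis). Grey diamonds are medians of all genes tested in 10 bins of GC content, from -0.44 to 0.32. Filled points are the members as measured, and open points the members after correction for GC content and length. Most filled points lie near the grey line, NFKBIE lies above it, and REL (-0.73, bin median -0.34) lies below it.

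After correction the members moved towards 0. The median over the 10 members was 0.06, beside -0.01 over all genes tested, and 7 of 10 members were above 0. At an unadjusted p under 0.05, 1 member was higher (NFKBIE) and 0 were lower, against 7.88% and 7.96% of all genes tested. Of all genes 0.0305% passed both thresholds and none of the members did, also with edgeR. In corrected TMM CPM 2 members, NFKBIE and RELB, had no overlap between the groups, and 10.1% of all genes were higher in this sense.

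NFKBIE kept a corrected log2 fold change of 0.47 (SE 0.09, adjusted p = 0.103), 1.39-fold. Its corrected TMM CPM was 36.4, 32.9 and 38.1 in NC and 47.7, 53.5 and 47.8 in si-NEAT1_2. The gap between the groups remained, and with each library left out the corrected value ran from 0.41 to 0.52.

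The log2 fold changes of BCL3, NFKBIB and NFKBIA came close to 0. BCL3 went from 0.36 to -0.03 (SE 0.10, adjusted p = 0.918), NFKBIB from 0.29 to -0.09 (SE 0.10, adjusted p = 0.702) and NFKBIA from 0.32 to 0.01 (SE 0.10, adjusted p = 0.958). BCL3 in corrected TMM CPM was 21.6, 21.0 and 20.7 in NC and 20.9, 19.7 and 21.4 in si-NEAT1_2. These values overlapped, and their spread was narrower than before correction.

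Among the subunits the corrected log2 fold change was 0.19 for NFKB2, against 0.42 as measured (SE 0.09, adjusted p = 0.322), 0.11 for RELA (SE 0.09, adjusted p = 0.556) and 0.10 for RELB (SE 0.09, adjusted p = 0.611). NFKB1 stayed at 0.00 (SE 0.08). REL went from -0.73 to -0.17 (SE 0.16, adjusted p = 0.632), and its corrected TMM CPM of 14.6, 22.4 and 17.3 in NC and 16.8, 14.3 and 17.2 in si-NEAT1_2 overlapped. Without NC replicate 2 the corrected value of REL was 0.02. TNFAIP3, of near-median GC content (49.5%), was the 1 member whose value grew, from 0.19 to 0.24 (SE 0.13, adjusted p = 0.385).

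**Figure D3:**
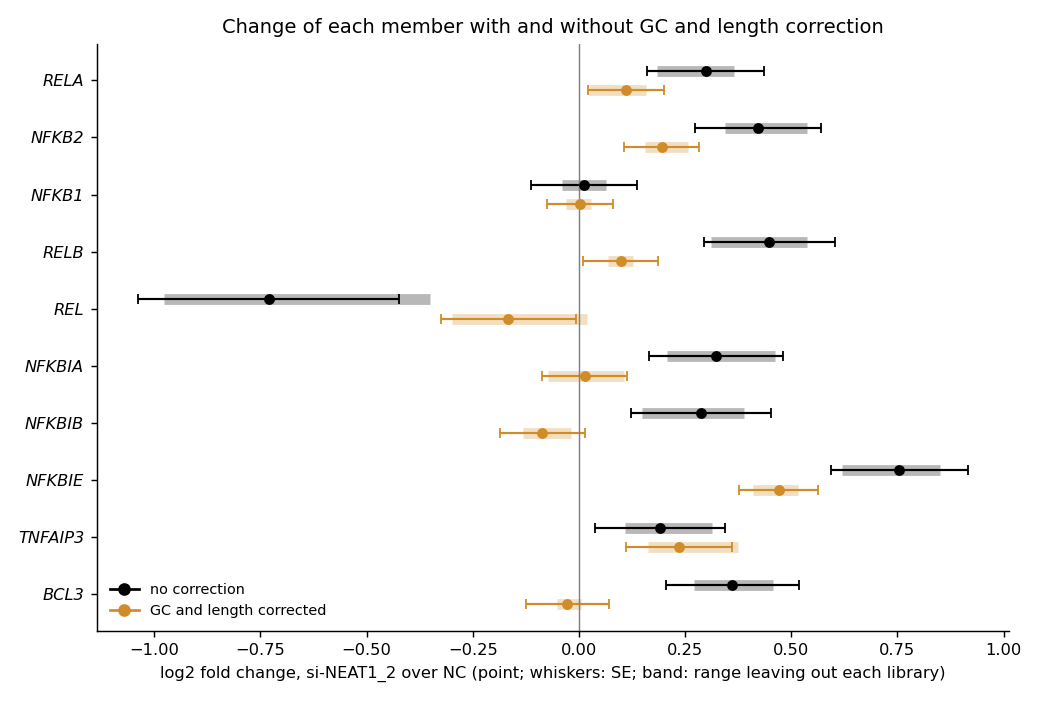
Log2 fold change of each member between si-NEAT1_2 and NC (horizontal axis) as measured (black) and corrected for GC content and transcript length (orange), with whiskers for 1 SE and bands for the range when each library is left out in turn. NFKBIE has the largest positive value in both (0.75 and 0.47), and the bands of NFKBIE, NFKB2, RELB, RELA and TNFAIP3 stay above 0 in both. REL has the widest band as measured, -0.98 to -0.35.

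The labels also carry a library code whose meaning is not given. The 3 libraries with code L2 (2 NC, 1 si-NEAT1_2) included both ends of the GC trend. In them the difference in mean log2 TMM CPM was 1.03 for NFKBIE, 0.68 for RELB, 0.53 for NFKB2, 0.54 for BCL3 and -1.57 for REL. After correction these values were 0.59, 0.14, 0.23, -0.08 and -0.46. In the pair with code L3 (1 of each) it was 0.66 for NFKBIE, 0.41 for RELB, 0.58 for NFKB2, 0.37 for BCL3 and -0.01 for REL, and after correction 0.39, 0.06, 0.31, -0.01 and 0.24. Code L4 held 1 si-NEAT1_2 library and no NC library and gives no value. NFKBIE, NFKB2, RELB, RELA and TNFAIP3 were higher within both codes before and after correction. The smallest of their values was 0.02, for RELA in code L2 after correction. The values of REL differed in sign between the codes after correction.

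The mix of subunit transcripts was then compared as shares of their summed FPKM, a quantity that does not depend on library scaling. RELA made up 38.9 ± 2.36% in NC and 36.2 ± 2.34% in si-NEAT1_2 (SD, n = 3), NFKB2 31.0 ± 1.6% and 34.5 ± 1.17%, and NFKB1 16.8 ± 0.218% and 14.8 ± 1.68%. RELB made up 11 ± 0.25% and 13.2 ± 2.16%, and REL 2.33 ± 1.14% and 1.28 ± 0.449%. The shares of NFKB2 and RELB did not overlap between the groups (two-sided exact permutation p = 0.10 for each), and after adjustment over the 5 shares every p was between 0.25 and 0.30. Shares of summed TMM CPM gave a difference of 1.39 points for RELA (si-NEAT1_2 minus NC) instead of -2.71 points, and there the NFKB2 shares overlapped. After the correction, shares of TMM CPM differed by 2.24 points for NFKB2, 0.26 for RELA, 0.03 for RELB, -1.43 for NFKB1 and -1.11 for REL, and all overlapped between the groups.

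**Figure D4:**
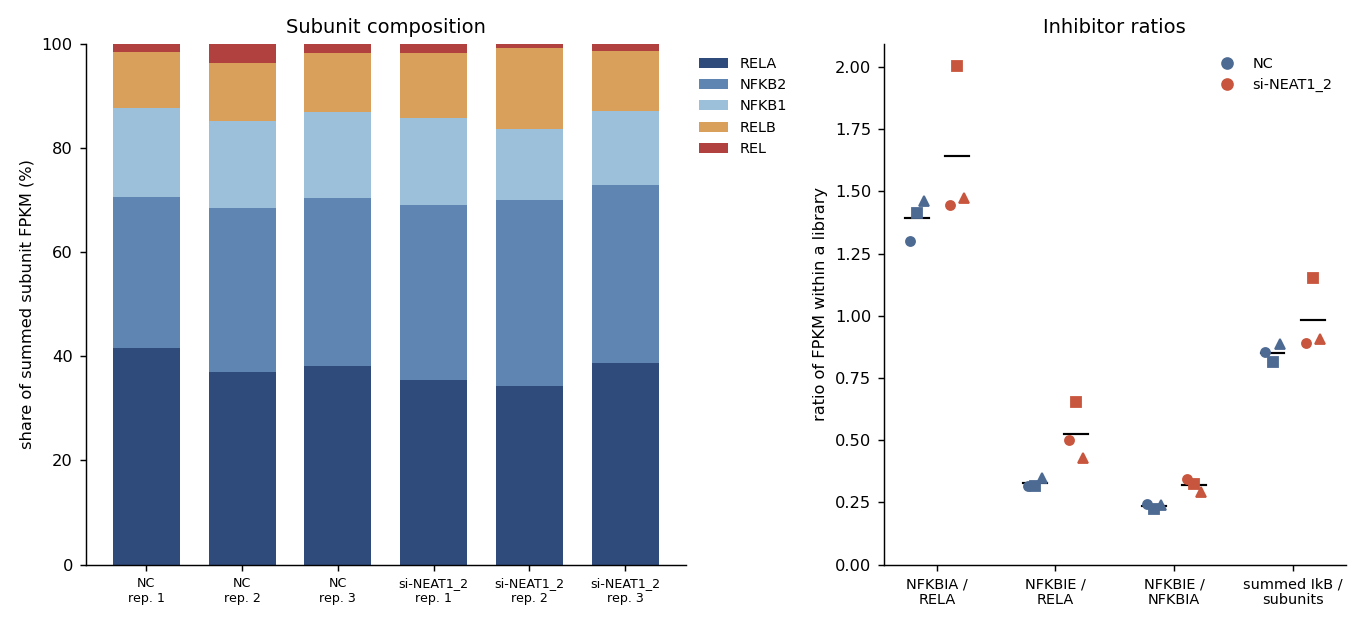
Left, share of each subunit in the summed subunit FPKM of each library in percent; right, ratios of FPKM within each library, with blue points for NC, red points for si-NEAT1_2, circle, square and triangle for replicates 1, 2 and 3, and black lines for the means. RELA and NFKB2 together make up most of the subunit FPKM in every library, and NFKBIE over RELA and over NFKBIA show no overlap between the groups.

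Ratios of inhibitor to subunit transcripts within a library gave the balance between both classes. NFKBIA over RELA was 1.3, 1.41 and 1.46 in NC and 1.45, 2.0 and 1.47 in si-NEAT1_2 on the FPKM scale. The groups overlapped (1.39 ± 0.08 against 1.64 ± 0.31, two-sided exact permutation p = 0.20), and si-NEAT1_2 replicate 2 alone stood apart. Without that library the difference of the means was 0.07 instead of 0.25, and with TMM CPM it was 0.02 (p = 1.0 by the same exact permutation test). With corrected TMM CPM it was -0.08, and the groups overlapped (p = 0.20, exact permutation test).

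NFKBIE over RELA was 0.31, 0.32 and 0.35 in NC and 0.50, 0.65 and 0.43 in si-NEAT1_2. NFKBIE over NFKBIA was 0.24, 0.22 and 0.24 in NC and 0.35, 0.33 and 0.29 in si-NEAT1_2. Both ratios were higher in every si-NEAT1_2 library (two-sided exact permutation p = 0.10 for each), on the FPKM scale, the TMM CPM scale and after correction. They were not among the ratios planned, and they set the member with the largest positive log2 fold change over members with smaller ones. Both therefore restate the gap of NFKBIE in the same libraries and give no separate support for it. With corrected TMM CPM, NFKBIE over RELA was 0.46 ± 0.02 in NC and 0.59 ± 0.09 in si-NEAT1_2, and NFKBIE over NFKBIA 0.39 ± 0.02 and 0.54 ± 0.07. The summed FPKM of the 3 IkB genes over that of the 5 subunits was 0.85 ± 0.04 in NC and 0.98 ± 0.15 in si-NEAT1_2, without overlap (exact permutation p = 0.10). The same ratio from TMM CPM overlapped (p = 0.20, exact permutation test), and without si-NEAT1_2 replicate 2 the difference of 0.13 on the FPKM scale became 0.05. After correction the groups overlapped at 0.58 ± 0.02 and 0.59 ± 0.02 (p = 0.60, exact permutation test).

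Other genes of the pathway were taken from 4 lists. Of 22 receptors and adaptors 21 were tested, and 5 were higher and 1 lower at an unadjusted p under 0.05. Of all genes tested 11.2% were higher and 12.9% lower at that level, or 7.88% and 7.96% after correction. After correction the counts of the list were 1 and 1, and the median log2 fold change of the list was 0.08 as measured and 0.03 corrected, beside 0.01 and -0.01 over all genes tested. The named genes were BIRC2, a ubiquitin ligase at the receptor complex (log2 fold change -0.78, SE 0.22, and -0.42 corrected), the TNF-family receptor CD40 (0.38, SE 0.13, and 0.13 corrected) and the lymphotoxin receptor LTBR (0.37, SE 0.14, and 0.04 corrected).

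Of 13 kinases and partners in the IKK and TAK1 complexes, 2 were higher and 4 lower, and 2 and 1 after correction, with medians of -0.11 and -0.06 (all genes tested, 11.2% and 12.9%, and 7.88% and 7.96% after correction). TAB3, an adaptor of TAK1, had a log2 fold change of -0.58 (SE 0.24), TBK1 of -0.56 (SE 0.19) and CHUK, encoding IKK-alpha, of -0.47 (SE 0.18). Corrected values were -0.14, -0.27 and -0.15. All 3 have a GC content under 40%, between 39.1% and 39.9%.

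Of 17 other IkB-like and ubiquitin-editing regulators 2 were higher and 4 lower, and 0 and 1 after correction, with medians of 0.14 and -0.03, beside the same shares of all genes (11.2%, 12.9%, 7.88% and 7.96%). TNIP2, an A20-binding protein, had 0.46 (SE 0.15), the ubiquitin ligase ITCH -0.44 (SE 0.17) and the deubiquitinase CYLD -0.41 (SE 0.16) as log2 fold changes. Their corrected values were 0.09, 0.00 and 0.09.

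Of 24 effector targets 19 were tested, and 8 were higher and 0 lower, against 6 and 0 after correction, beside 11.2% and 12.9% of all genes as measured and 7.88% and 7.96% corrected. The median log2 fold change of these 19 was 0.30 as measured and 0.28 corrected. ICAM1, an adhesion molecule that binds leukocytes, had 0.95 (SE 0.17) and 0.77 corrected (SE 0.12). TRAF1, a signalling adaptor, had 0.81 (SE 0.16) and 0.85 corrected (SE 0.16), and MMP9, a matrix protease at 0.31 to 1.0 TMM CPM, had 1.25 (SE 0.44) and 0.93 corrected (SE 0.44). None of the 70 genes tested from the 4 lists passed both thresholds with edgeR in either fit, although the corrected adjusted p of ICAM1 was 0.048, since its fold change was under 2.

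Marker levels of other cell types were set beside these counts. The summed FPKM of the 10 leukocyte markers was 12.4 to 13.8 in NC and 15.5 to 20.8 in si-NEAT1_2, carried by CD68 with a mean of 14.5. The defining markers PTPRC and CD3E had at most 0.11 and 0.03 FPKM in any library. The summed FPKM of 8 fibroblast markers was 25.8 to 30.3 in NC and 20 to 23.1 in si-NEAT1_2, carried by LUM. The 6 endothelial markers summed to at most 1.34.

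A table with 1 value per group was deposited beside the libraries. Its FPKM values for the members were not the means of these libraries. NFKBIB had 26.9 in the NC column and 68.8 in the si-NEAT1_2 column, where the libraries ranged from 16.6 to 20.8 and from 21.0 to 25.0. BCL3 had 47.4 and 24.3, where the libraries ranged from 8.70 to 9.75 and from 10.1 to 12.7. NFKBIE had 5.4 and 9.03, below all libraries of its group.

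In each column 9 of 10 members were outside the range of that group's libraries, 8 of them above all libraries in both, and REL alone was inside (1.74 and 0.857). Of the 9537 genes with an FPKM of at least 1 throughout, 87.3% in the NC column and 79.3% in the si-NEAT1_2 column were outside as well. All of these genes' values in both columns were whole multiples of 1/300 (within 0.001 of such a step), which is the step of a mean of 3 values given to 2 decimals. A mean of a group's libraries cannot fall outside their range, and which libraries the columns stand for was not given in the sources used here.

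Directions from the group table therefore stand as 1 ratio without a replicate. The log2 ratio of si-NEAT1_2 over NC there was 1.36 for NFKBIB, 0.74 for NFKBIE, 0.70 for TNFAIP3, 0.44 for NFKBIA, 0.38 for RELB, 0.33 for NFKB2 and 0.28 for RELA. It was -0.13 for NFKB1, -0.96 for BCL3 and -1.03 for REL. From the libraries' mean FPKM the same ratios were 0.25 for NFKBIB, 0.69 for NFKBIE, 0.03 for TNFAIP3 and 0.34 for BCL3, so that BCL3 had opposite signs in both sources. The ratio was 2 or more for NFKBIB (2.56) and at or under 0.5 for REL (0.491), and 12.4% of the 9537 genes differed by a ratio of 2 or more in either direction, with a median log2 ratio of -0.17 over them.

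**Figure D5:**
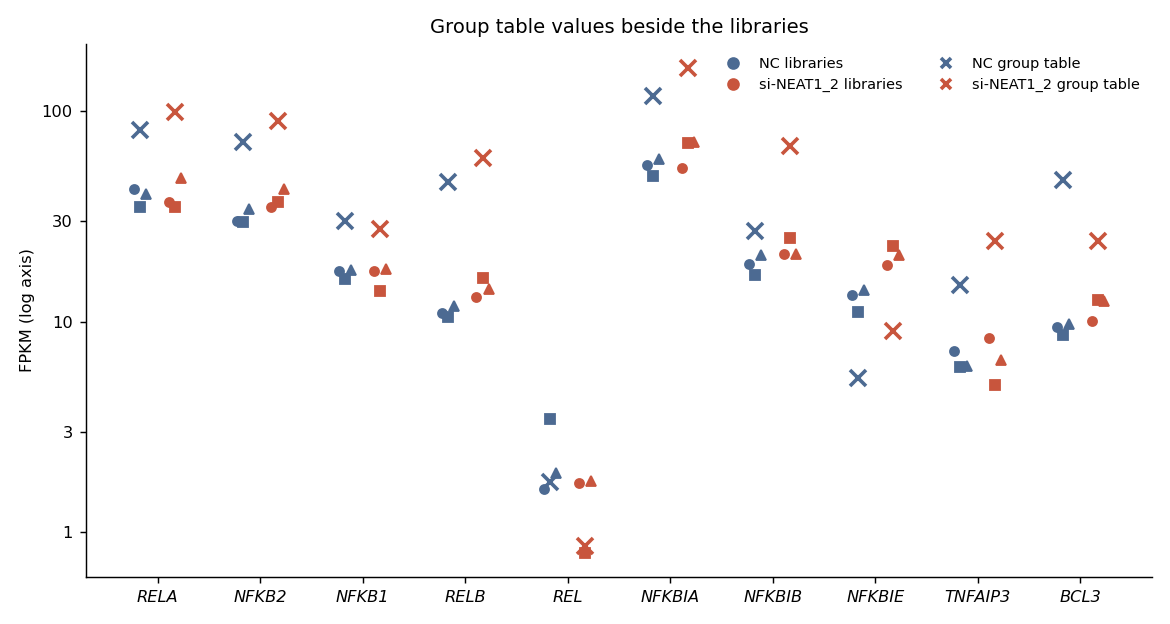
FPKM of each member (log axis) in the libraries of NC (blue) and si-NEAT1_2 (red), with circle, square and triangle for replicates 1, 2 and 3, and in the group table (crosses of the same colours). Crosses lie above the libraries of their group for 8 members, below them for NFKBIE and among them for REL.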

How the data were processed

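Messenger RNA of 6 K1 libraries was enriched with oligo(dT) beads and depleted of ribosomal RNA. Per the methods the authors mapped reads with TopHat2 and quantified them with RSEM, and the submitters' processing notes list GRCh38, fastp 0.18.0, Bowtie2 2.2.8, HISAT2 and StringTie 1.3.1 without roles. The deposited values are estimated (expected) counts, not normalized, of which 9.19% to 9.61% per library were not whole, and FPKM values scaled by the authors for length and depth. The deposited group table holds an expected count and an FPKM per group, and no columns of per-sample values were left unmapped (0).

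Expected counts were rounded, filtered with filterByExpr, scaled by TMM and tested over all 13109 genes with the edgeR 4.0.16 quasi-likelihood test in R 4.3.3. For the correction, splines with 5 degrees of freedom in GC content and length (longest protein-coding transcript, GENCODE release 29; 12581 genes) were fitted per library and used as offsets, and genes without these were left uncorrected. Alternatives were other scaling and filters, DESeq2 1.42.0, limma-trend 3.58.1 on log2(FPKM + 1) or with 0.1, a replicate block, the library code, and leaving out each library. The correction with each library left out, and of the ratios and shares, was chosen after seeing the data. The ratios of NFKBIE over RELA and over NFKBIA were not planned. Values of single genes and ratios were tested by permuting the libraries exactly (two-sided, 20 splits). The scripts were tested on simulated data. All 10 members are named, and of each other list the up to 3 genes with the largest absolute log2 fold change at an unadjusted p under 0.05. The members and lists were chosen with earlier results of these data known. Protein sequences were not used here. Replicate numbers were not used to pair libraries.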

Additional observations from a re-analysis of the deposited data

How the results depend on the processing

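With 3 libraries per group, of which NC replicate 2 and si-NEAT1_2 replicate 2 were the ends of the GC trend, the correction moved the log2 fold changes of the members by -0.39 (BCL3) to 0.56 (REL). The number of members past both thresholds was 0 under every alternative run. NFKB2, RELA, RELB, NFKBIE and TNFAIP3 kept a positive log2 fold change under every alternative, with NFKBIE between 0.41 and 0.86 across the fits. The FPKM fits gave 0.02 for RELA and 0.00 for TNFAIP3.

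The sign of NFKB1 changed without TMM (-0.047), with limma-trend on log2(FPKM + 1) with or without the filter (-0.057 in both) and with a pseudocount of 0.1 (-0.061), with the library code (-0.030), in the group table (-0.13) and on leaving out a library (-0.041 to 0.065). The correction turned NFKBIB to -0.086 (-0.085 with the replicate block) and BCL3 to -0.027 (-0.027 with the block), and the group table gave -0.96 for BCL3. Leaving out each library, with and without correction, gave ranges of -0.052 to 0.46 for BCL3, -0.073 to 0.46 for NFKBIA, -0.13 to 0.39 for NFKBIB and -0.98 to 0.019 for REL. The RELA share was 1.39 points higher with TMM CPM and 0.26 with corrected TMM CPM, where NFKBIA over RELA differed by -0.078. The cause was not tested for these settings.

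The median log2 fold change of the members, 0.31, was 0.056 with the correction, 0.052 with correction and block, and 0.0026 to 0.41 on leaving out libraries with and without correction. Of the 4 other pathway lists 17 genes were higher and 9 lower at an unadjusted p under 0.05. Of all 13109 genes tested 1469 were higher and 1696 lower. With the correction the lists had 9 and 3, and all genes 1033 and 1043. On leaving out libraries the counts of the lists ran from 6 to 23 and from 1 to 13. Without NC replicate 2 the lists had 6 and 1, and all 13300 genes tested there 532 and 542. Without si-NEAT1_2 replicate 1 the lists had 23 and 13, and all 13284 genes tested there 1997 and 2391. The number of list genes past both thresholds, 0, was 0 to 2 on leaving out libraries, the 2 arising without si-NEAT1_2 replicate 1. There 32 of all genes were called higher and 184 lower.

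The methods speak of 3 pairs without tying them to the replicate numbers, and the correlations of same-numbered deviations from the group means were -0.38, -0.46 and -0.01, so the numbers were not used as a pairing. These correlations are of uncorrected values, in which NC replicate 2 and si-NEAT1_2 replicate 2 were the ends of the GC trend. They therefore cannot exclude a pairing. Whether the libraries were paired, by these numbers or in another way, is not given in the sources used here. With a replicate block 3 members were higher and 0 lower at an unadjusted p under 0.05, without BCL3 and REL. Of all 13109 genes tested 615 were higher and 923 lower at that level with the block, and 602 and 678 with block and correction. The block gave 9 genes higher and 2 lower in the other lists, 9 and 1 with the correction, 0.75 for NFKBIE (adjusted p = 0.401 with edgeR), and a median of 0.30 for the members.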
